A study of Mus musculus with 6 samples.

Results

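Ribosome biogenesis and RNA polymerase I genes were compared between mouse bone marrow progenitors with and without GFP from a Hes1 reporter. The set was formed by gene symbol: every gene on the array whose symbol begins with Nop, Utp, Rrp, Polr1 or Exosc, plus 16 nucleolar genes named one by one (Ncl, Npm1, Fbl, Nolc1, Dkc1, Ubtf, Bop1, Wdr12, Pes1, Nip7, Rrs1, Gar1, Nhp2, Wdr43, Mybbp1a and Ddx21). This gave 58 genes of 18193, measured by 119 of 45037 probe sets. Each gene is read from 1 probe set, the one with the highest mean log2 value in the 6 arrays, and no filter on low signal was applied, so all 58 were tested.

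There were 2 groups of 3 Affymetrix arrays, one of GFP-positive and one of GFP-negative cells. All cells came from 6-week-old male mice of genotype Hes1 GFP/WT, in which 1 allele of Hes1, a Notch target, carries the reporter, and all were lineage negative, cKit+ and Sca1-, the phenotype of myeloerythroid progenitors. GFP reads out activity of the Hes1 locus and is not itself a marker of a cell type. The labels do not say whether arrays came from separate animals or pools, so p-values reflect the spread among these arrays alone, and that spread may be technical.

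Ribosome production starts in the nucleolus, where RNA polymerase I transcribes the ribosomal RNA precursor. Small nucleolar RNPs modify the precursor, the small subunit processome and the large subunit assembly factors fold and cut it while ribosomal proteins join, and the RNA exosome trims and degrades its fragments. Red cell precursors are known to depend heavily on ribosome supply: in humans, mutations of ribosomal protein genes cause Diamond-Blackfan anaemia, in which erythroid progenitors fail.

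Values are log2 of the authors' RMA intensities, and differences are GFP-positive minus GFP-negative means. The array means lay between 749 and 754 on the linear scale, and precision is limited by there being 3 arrays a group. Hes1 had log2 intensities of 7.20, 7.12 and 7.13 in GFP-positive arrays, against 5.74, 6.01 and 5.90 in GFP-negative arrays, 2.40-fold higher with no overlap (limma adjusted p = 0.00141), the direction of the sort. Kit, on which both groups were sorted, had 11.14, 11.24 and 11.13 in GFP-positive arrays and 11.31, 11.53 and 11.42 in GFP-negative arrays. Markers of the lineages present in this gate differed widely. Of 14 erythroid markers 10 rose and 0 fell, and their summed intensity was 79413 to 87965 in GFP-positive and 52824 to 54184 in GFP-negative arrays. All 14 granulocyte and monocyte markers fell, with sums of 34747 to 43336 in GFP-positive and 82001 to 87543 in GFP-negative arrays. All 9 stem and multipotent progenitor markers fell, with sums of 4024 to 4834 against 13193 to 15006. The part of these lineage genes in the values below was not tested. GFP-positive array 1 and GFP-negative array 3 had the highest summed intensity of their groups over 11 mature lymphocyte markers. The sum was 3482 in GFP-positive array 1, against 1179 and 1400 in the other GFP-positive arrays. In GFP-negative array 3 it was 4098, against 2950 and 2719 in the other GFP-negative arrays. By the median log2 value of these markers GFP-positive array 1 had 6.14, against 5.78 and 5.76. GFP-negative array 3 had 5.61, against 5.48 and 5.52, so it stood out little by this measure and lay below all GFP-positive arrays. Results are also given without this pair of arrays, called the lymphocyte-high pair after the sums alone. In such mixed samples, fewer cells of a type and less RNA per cell cannot be told apart.

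The comparison asks how the machinery that builds ribosomes differs between progenitors with and without Hes1 reporter activity. Most of it differed little. Of the 58 genes, 5 rose in GFP-positive cells, namely Utp23, Rrp9, Polr1b, Exosc7 and Exosc8, and 1, Utp14b, fell (limma, Benjamini-Hochberg adjusted p under 0.05 over all probe sets). These 6 are 10.3% of the set, whereas 18.1% of all genes were called. The 5 that rose are 8.62% of the set, against 8.15% called higher among all genes, and the 1 that fell is 1.72%, against 9.92% called lower. No call of a member was stable to leaving out arrays: none was left without GFP-negative array 2 or without GFP-negative array 3, nor without the lymphocyte-high pair. Over all genes the share called was also lower, from 10.1% to 14.8% with 1 array left out and 7.19% without the pair. Without GFP-negative array 1 the calls were 3 higher (Rrp9, Utp23 and Utp4), without GFP-positive array 1 they were Rrp9 and Utp23, without GFP-positive array 2 only Utp14b, and without GFP-positive array 3 they were Rrp9, Polr1b and Polr1a. With the replicate number as a block, 2 were called higher (Rrp9 and Utp4) and 1 lower (Utp14b), while 14.0% of all genes were called. In that fit limma gave adjusted p = 0.0743 for Polr1b, 0.0814 for Utp23, 0.0698 for Exosc7 and 0.0732 for Exosc8. With array medians subtracted 11 of the 58 were called higher and 1 lower, and over all genes the split turned to 2657 higher and 1712 lower, against 1482 higher and 1805 lower without that step.

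The differences were small and mostly on the positive side. Of the 58 genes, 49 had a difference above 0, with a median of 0.16, whereas 64.6% of all genes lay above 0 with a median of 0.11. Since 57 of the 58 lie above the median probe set in signal, the 10723 genes that do so are a closer background: 54.4% of them lay above 0, their median was 0.04, 26.6% were called and the groups did not overlap for 54.2%. The median over the set was 11.52, 11.40 and 11.48 in GFP-positive arrays and 11.26, 11.28 and 11.19 in GFP-negative arrays. The middle 50% of the set lay between 0.06 and 0.31, against -0.13 and 0.28 for all genes. A difference of at least 1.5-fold was seen in 3 of the 58 (Utp23, Rrp9 and Utp14b), or 5.17%, against 18.2% of all genes. Groups did not overlap for 25 of the 58, 24 of them higher and 1 lower, or 43.1%, whereas they did not overlap for 45.6% of all genes (28.9% higher and 16.7% lower). No test was made of the set as a whole, since its members were chosen with results of these data known.

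**Figure D1:**
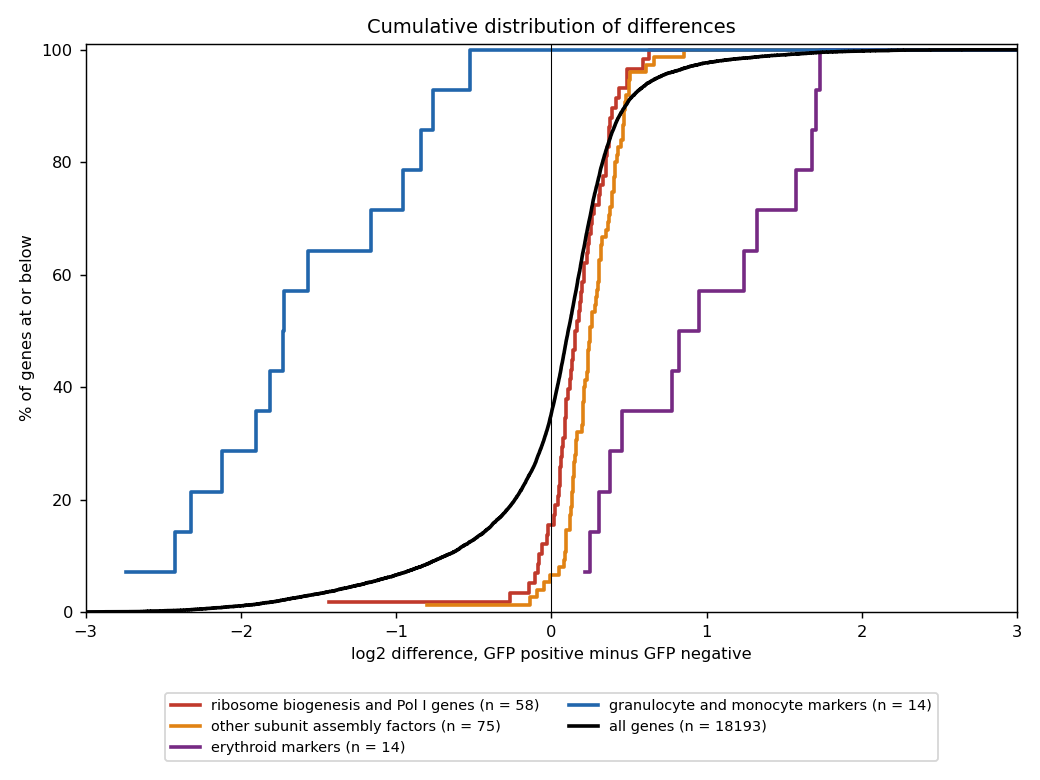
Cumulative share of genes (percent, vertical axis) at or below each log2 difference, GFP positive minus GFP negative (horizontal axis), for the 58 genes, for 75 other subunit assembly factors, for 14 erythroid markers, for 14 granulocyte and monocyte markers and for all 18193 genes. The 58 genes rise steeply around their median of 0.16, while the marker lists lie apart with medians of 0.89 and -1.72.

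An adjusted p above the threshold does not show that a gene was equal in both groups, so the intervals are given. For all 52 genes that were not called, the 95% interval of the difference excluded a change of 2-fold in either direction, and for 32 of them it excluded a change of 1.41-fold. The interval that reached highest was that of Utp4, at 0.80, and the one that reached lowest was that of Nop16, at -0.64. Among these 52, the adjusted p lay between 0.05 and 0.1 for 6 genes (Exosc9, Utp4, Utp18, Nop2, Rrp12 and Nhp2), all with a positive difference.

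**Figure D2:**
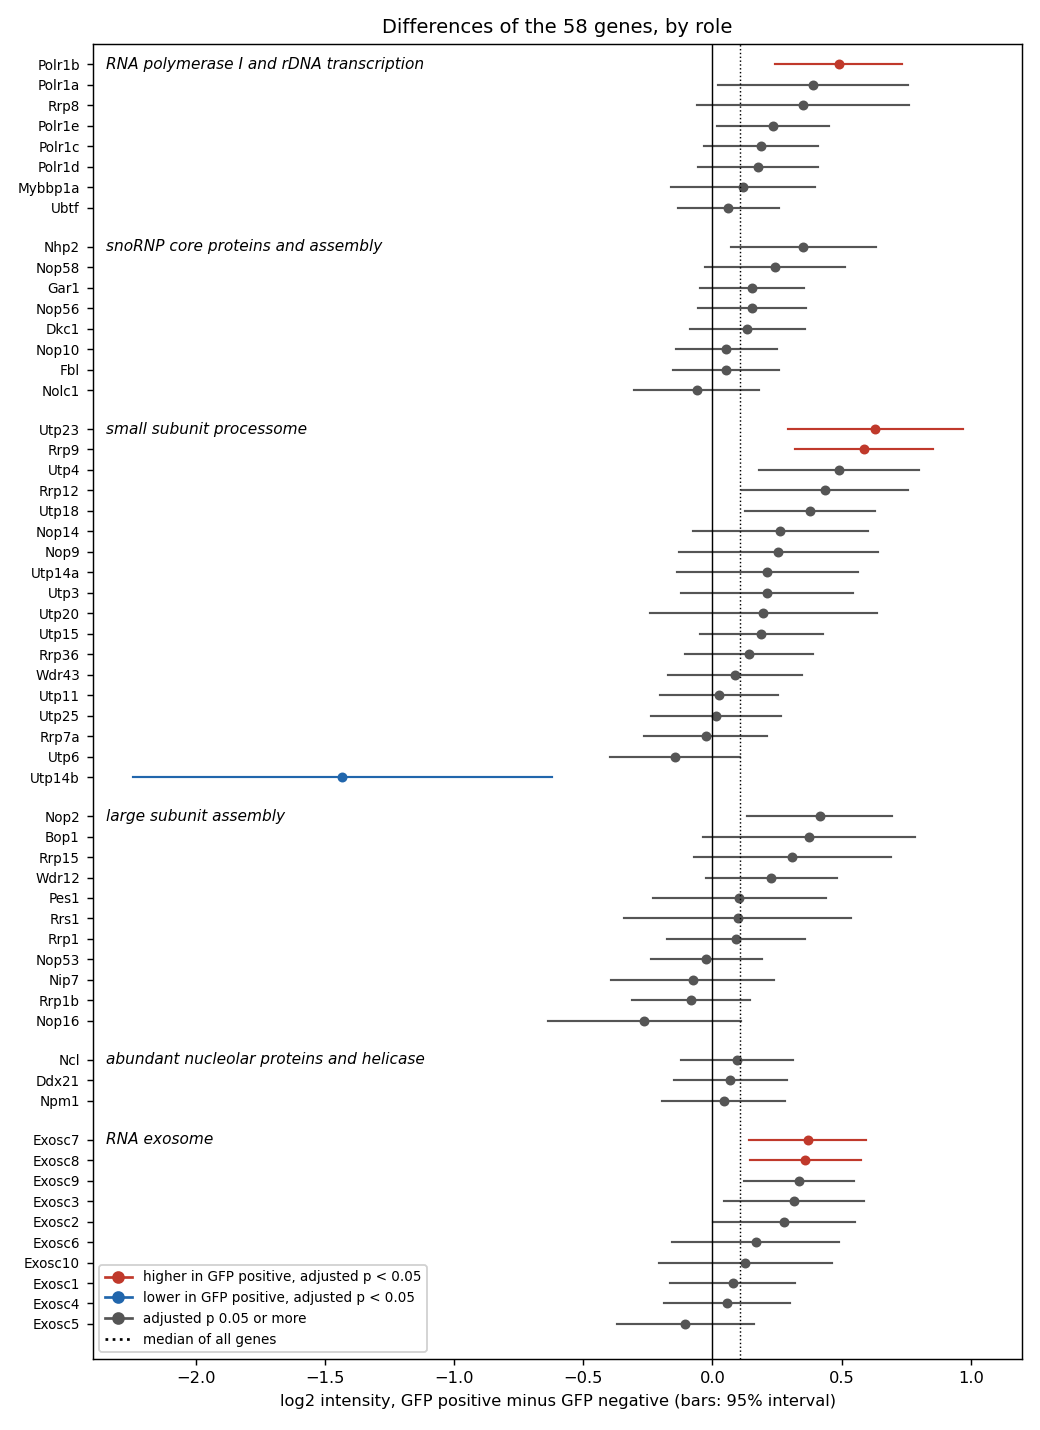
Log2 difference of each of the 58 genes (points, GFP positive minus GFP negative, horizontal axis) with its 95% interval (bars), grouped by role. The 5 genes called higher lie between 0.36 and 0.63, Utp14b lies at -1.43 with the widest interval, and the dotted line marks the median of all genes at 0.11.

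The 8 genes of RNA polymerase I and of ribosomal DNA transcription all had a difference above 0, and 1 of them was called. That is 12.5% of the 8, against 18.1% of all genes. Polr1b, the second largest subunit of the enzyme, had log2 intensities of 9.82, 9.80 and 9.64 in GFP-positive arrays, against 9.26, 9.17 and 9.36 in GFP-negative arrays. All 3 GFP-positive arrays lay above all GFP-negative arrays, a 1.40-fold rise (difference 0.49 ± 0.10, SE; limma adjusted p = 0.0262). The call was lost when any 1 array other than GFP-positive array 3 was left out. Polr1a, the largest subunit, had 9.88, 9.91 and 9.43 in GFP-positive arrays, against 9.46, 9.27 and 9.32 in GFP-negative arrays. GFP-positive array 3 lay within the GFP-negative range, and the gene did not pass (difference 0.39, 95% interval 0.02 to 0.76; limma adjusted p = 0.141). A second Polr1a probe set of nearly the same mean had 9.99, 9.86 and 9.55 in GFP-positive arrays, against 9.41, 9.20 and 9.14 in GFP-negative arrays. There the groups lay apart, with a difference of 0.55 that did not pass (limma adjusted p = 0.0559), and its 3 dimmer probe sets had differences from -0.06 to 0.07.

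The other polymerase genes differed less in the probe sets that represent them. Ubtf, the factor that binds and opens ribosomal DNA for the polymerase, had 13.24, 13.25 and 13.25 in GFP-positive arrays, against 13.22, 13.18 and 13.16 in GFP-negative arrays. The groups did not overlap, but the difference was 0.06 (95% interval -0.14 to 0.26; limma adjusted p = 0.643). A dimmer probe set of Ubtf, at a mean of 9.27, differed by 0.48 and was not called (95% interval -0.08 to 1.03; limma adjusted p = 0.210). Polr1d, a subunit shared with RNA polymerase III, had 12.89, 12.80 and 12.74 in GFP-positive arrays, against 12.73, 12.62 and 12.55 in GFP-negative arrays, a difference of 0.18 that did not pass (limma adjusted p = 0.262). Polr1c, also shared with RNA polymerase III, differed by 0.19 and Polr1e by 0.24. Rrp8, a methyltransferase-like protein that in human cells silences ribosomal DNA, differed by 0.35, and Mybbp1a, a nucleolar repressor of transcription, by 0.12. None of these passed, with adjusted p from 0.134 for Polr1e to 0.516 for Mybbp1a.

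No small nucleolar RNP gene was called among 8 measured (limma, adjusted p from 0.0978 to 0.713), and 1 of them, Nhp2, passed an unadjusted p of 0.05. Fbl, the methyltransferase of the box C/D particles, had 13.49, 13.41 and 13.45 in GFP-positive arrays, against 13.45, 13.37 and 13.38 in GFP-negative arrays. These ranges overlap, and the difference was 0.05 (95% interval -0.15 to 0.26). Nop10, the smallest protein of the box H/ACA particles, had 13.80, 13.79 and 13.77 in GFP-positive arrays, against 13.74, 13.76 and 13.72 in GFP-negative arrays, a difference of 0.05 (95% interval -0.14 to 0.25). The remaining box C/D core proteins, Nop56 and Nop58, differed by 0.15 and 0.24. Of the remaining H/ACA proteins, Dkc1, the pseudouridine synthase, differed by 0.13, Gar1 by 0.15 and Nhp2 by 0.35. A dimmer probe set of Nhp2 differed by 0.52, with groups that did not overlap, and was not called (limma adjusted p = 0.0595). Nolc1, a chaperone of these particles, was the only gene of the 8 below 0, at -0.06. That sign rests on 1 of its 3 probe sets: the others differed by 0.38 and 0.34 and were not called.

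The small subunit processome held 3 of the 6 calls among its 18 genes. That is 16.7% of the 18, against 18.1% of all genes and 26.6% of the genes brighter than the median probe set. Rrp9, a protein of the U3 small nucleolar RNP that guides the first cuts of the precursor, had log2 intensities of 9.68, 9.44 and 9.38 in GFP-positive arrays, against 8.97, 8.91 and 8.86 in GFP-negative arrays. Groups lay apart in every array, and Rrp9 rose (difference 0.59 ± 0.11, SE; limma adjusted p = 0.0188), the lowest adjusted p of the 58 genes. The call was kept under 11 of 16 alternatives and lost, among others, without GFP-negative array 2 or 3 and without GFP-positive array 2. Utp23, a processome protein with a nuclease-like fold, had 9.10, 9.27 and 9.38 in GFP-positive arrays, against 8.82, 8.41 and 8.62 in GFP-negative arrays. It rose 1.55-fold (difference 0.63 ± 0.14, SE; limma adjusted p = 0.0326), and no GFP-positive array fell within the GFP-negative range. Its other 3 probe sets had differences of 0.22, 0.47 and 0.45 and were not called. The call of Utp23 was lost without GFP-negative array 2 or 3 and without GFP-positive array 2 or 3.

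Utp14b was the only gene of the set that fell, and its probe set was dim. It is a retrogene copy of Utp14a known in mouse for a role in sperm stem cells. Its log2 intensities were 3.46, 4.73 and 4.10 in GFP-positive arrays, against 5.33, 5.91 and 5.34 in GFP-negative arrays. These values lie below 5.96, the median over all probe sets, and Utp14b was the only one of the 58 genes below it, whereas 41.1% of all genes were. The groups did not overlap, with a 2.70-fold lower signal in GFP-positive arrays (difference -1.43 ± 0.34, SE; limma adjusted p = 0.0386), and of the 6 fits with 1 array left out, only the one without GFP-positive array 2 kept the call. In the RefSeq table the gene lies inside Acsl3, a fatty acid activating enzyme, whose own probe set had a difference of -0.06 (limma adjusted p = 0.833). Utp14a, the X-linked original, had a difference of 0.21 (limma adjusted p = 0.361).

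Of the 15 processome genes that were not called, 3 had groups that did not overlap and an adjusted p under 0.1. They were Utp4 at 0.49, Rrp12 at 0.43 and Utp18 at 0.38, named here after their values were seen. Utp4 had 11.55, 11.31 and 11.44 in GFP-positive arrays, against 11.13, 10.77 and 10.94 in GFP-negative arrays, and was called once the replicate number entered as a block. Nop14, Nop9, Utp14a, Utp3, Utp20, Utp15 and Rrp36 had differences from 0.14 to 0.26. Wdr43, Utp11, Utp25, Rrp7a and Utp6 lay between -0.14 and 0.09. Utp6, at -0.14, had 2 dimmer probe sets of the opposite sign, at 0.39 and 0.23, and none of the 3 was called.

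No gene of large subunit assembly was called among 11 (limma adjusted p from 0.0652 to 0.875), and 1 of them, Nop2, passed an unadjusted p of 0.05. Nop53, which in yeast brings the exosome to the maturing large subunit, had 13.30, 13.22 and 13.18 in GFP-positive arrays, against 13.32, 13.21 and 13.24 in GFP-negative arrays. The difference was -0.02 (95% interval -0.24 to 0.19), and its sign turned to positive, at 0.05, once array medians were subtracted. Rrp1b had 12.38, 12.32 and 12.36 in GFP-positive arrays, against 12.36, 12.39 and 12.56 in GFP-negative arrays, a difference of -0.08. A dimmer probe set of Rrp1b, at a mean of 8.62 over the 6 arrays, gave the opposite sign and was called higher (difference 0.44; limma adjusted p = 0.0498), so the probe sets of this gene disagree.

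Pes1, Bop1 and Wdr12 form the PeBoW complex, which is needed to process the precursor of the large subunit RNA. Pes1 differed by 0.10, Bop1 by 0.37 and Wdr12 by 0.23, and none passed (limma adjusted p = 0.639, 0.190 and 0.193). Wdr12 alone of the 3 had groups that did not overlap in the probe set that represents it. A dimmer probe set of Wdr12, at a mean of 11.34, had the opposite sign and overlapping groups (difference -0.18; limma adjusted p = 0.349). Its dimmest, at a mean of 3.05, differed by 0.15. Nop2, a methyltransferase of the large subunit RNA, had 11.26, 11.04 and 10.92 in GFP-positive arrays, against 10.73, 10.58 and 10.67 in GFP-negative arrays (difference 0.41; limma adjusted p = 0.0652). Rrp15, Rrs1 and Rrp1 differed by 0.31, 0.10 and 0.09, and Nip7 and Nop16 by -0.08 and -0.26. The sign of both turned with the probe set, since the second probe set of each had a difference of 0.21, and that of Nip7 is of nearly the same mean as the first.

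The 3 abundant nucleolar proteins had a median difference of 0.07 and none was called (limma adjusted p from 0.514 to 0.789). Ncl, the nucleolin gene, had 13.06, 13.17 and 13.22 in GFP-positive arrays, against 13.09, 13.02 and 13.05 in GFP-negative arrays. GFP-positive array 1 lay within the GFP-negative range, and the difference was 0.09 (95% interval -0.12 to 0.31; limma adjusted p = 0.514). All 5 probe sets of Ncl lay between 0.04 and 0.19. Npm1, nucleophosmin, a nucleolar chaperone often mutated in human acute myeloid leukaemia, had 13.62, 13.79 and 13.82 in GFP-positive arrays, against 13.63, 13.71 and 13.75 in GFP-negative arrays, a difference of 0.04 (95% interval -0.19 to 0.28; limma adjusted p = 0.789). Ddx21, an RNA helicase of the nucleolus, differed by 0.07. Its second, dimmer probe set differed by 0.49 with groups that did not overlap (limma adjusted p = 0.104), so the probe sets of Ddx21 disagree in size.

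Of the 10 exosome subunits 2 rose, both of the ring of the complex. They are 20% of the 10, against 8.15% called higher among all genes. Among genes brighter than the median probe set, 11.2% were called higher. Exosc7 had 10.65, 10.53 and 10.50 in GFP-positive arrays, against 10.27, 10.16 and 10.15 in GFP-negative arrays, a 1.29-fold rise (difference 0.37 ± 0.09, SE; limma adjusted p = 0.0490). Exosc8 had 11.93, 11.84 and 11.83 in GFP-positive arrays, against 11.59, 11.47 and 11.47 in GFP-negative arrays, a 1.28-fold rise (difference 0.36 ± 0.09, SE; limma adjusted p = 0.0456). In both genes the groups lay apart, array 1 was the highest of each group, and the call was lost when any 1 of the 6 arrays was left out. A dimmer probe set of Exosc8 had a difference of -0.10 (limma adjusted p = 0.573).

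None of the other 8 exosome subunits was called. Exosc9, a further ring subunit, had 11.70, 11.63 and 11.66 in GFP-positive arrays, against 11.41, 11.31 and 11.27 in GFP-negative arrays (difference 0.33; limma adjusted p = 0.0539). Exosc3 and Exosc2, which bind RNA on the cap of the ring, differed by 0.31 and 0.28, with groups that did not overlap. Exosc6, Exosc10, Exosc1 and Exosc4 differed by 0.17, 0.13, 0.08 and 0.06, and Exosc5 by -0.10. For Exosc4 the 2 dimmer probe sets had larger differences, 0.47 (limma adjusted p = 0.0939) and 0.55 (limma adjusted p = 0.117), than the one that represents the gene. Exosc10 is the nuclease that associates with the complex in the nucleolus.

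**Figure D3:**
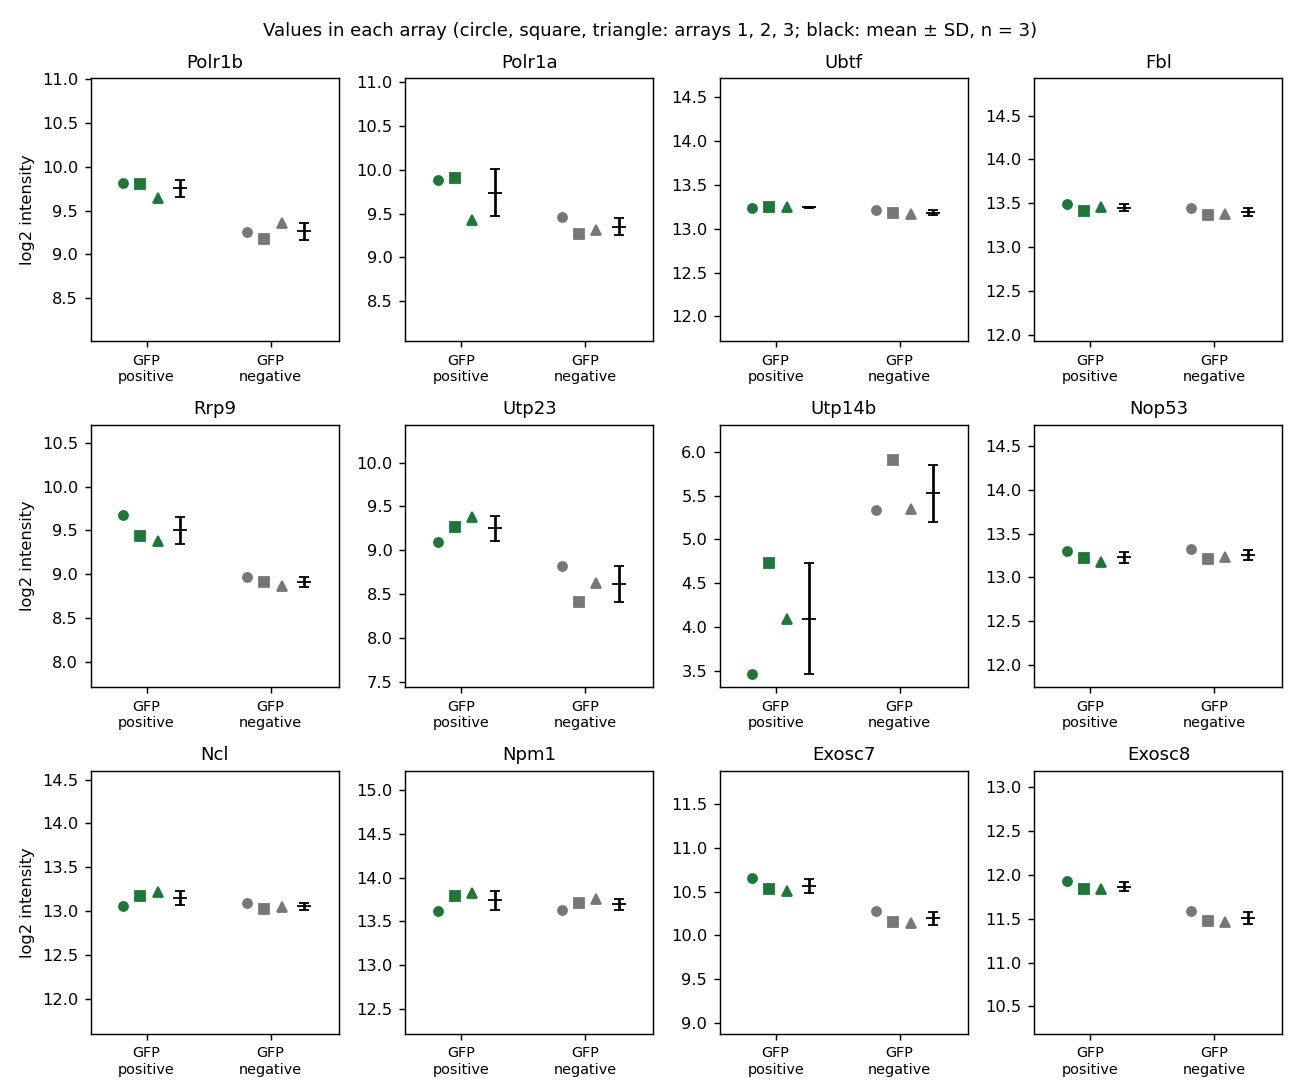
Log2 intensity (vertical axes, each spanning 3 log2 units) in each array for 12 of the genes, with GFP-positive arrays in green left of GFP-negative arrays in grey; black marks give the mean ± SD (n = 3). Groups lie apart for Polr1b, Rrp9, Utp23, Utp14b, Exosc7, Exosc8 and, by a small margin, Ubtf, and overlap for Polr1a, Fbl, Nop53, Ncl and Npm1.

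Promoters were compared because members of this pathway are known targets of Myc, which binds CACGTG. RefSeq promoter windows of build GRCm38.p6, from 250 bases before to 50 bases after the annotated start, were matched by gene ID for 47 of the 58 genes. CACGTG, which reads the same on both strands, occurred in at least 1 window of 11 of the 47 genes (23.4%), against 10.3% of 14367 genes on the array with a window. In windows counted singly the share was 21.7% of 60, against 8.74% of 18006 windows of genes on the array. CCGGAAG on either strand, a core bound by ETS factors, occurred in 14 of 47 genes (29.8%), against 15.0% of genes on the array. The palindrome known as the ZBTB33 motif occurred in 1 of 47 genes (2.13%), against 0.870% of genes on the array. Windows were alike in base composition, with a median of 57.8% G or C, against 58.3% for genes on the array. Each motif was counted on its own, and a match is a description of letters.

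The 11 genes with CACGTG were Exosc5, Mybbp1a, Nop2, Pes1, Utp4, Utp18, Utp20, Wdr43, Utp25, Rrp7a and Utp14b. None of them rose, 1 fell (Utp14b), and their median difference was 0.10. Of the 36 genes with a window but no CACGTG, 4 rose, and their median difference was 0.19. The difference between these 2 groups was not tested. The 250 bases before the start are shown for a pair with CACGTG, Nop2 and Utp18, and for a pair that rose and held none of the 3 motifs in the whole window, Polr1b and Rrp9. Capitals mark CACGTG and CCGGAAG.
Nop2 (chr6:125131633-125131882, plus strand): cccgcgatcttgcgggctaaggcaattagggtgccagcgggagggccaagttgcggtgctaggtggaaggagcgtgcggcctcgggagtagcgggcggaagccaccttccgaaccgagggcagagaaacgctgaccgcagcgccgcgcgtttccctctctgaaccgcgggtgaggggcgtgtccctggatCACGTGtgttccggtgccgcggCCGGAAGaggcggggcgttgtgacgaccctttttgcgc
Utp18 (chr11:93885767-93886016, minus strand): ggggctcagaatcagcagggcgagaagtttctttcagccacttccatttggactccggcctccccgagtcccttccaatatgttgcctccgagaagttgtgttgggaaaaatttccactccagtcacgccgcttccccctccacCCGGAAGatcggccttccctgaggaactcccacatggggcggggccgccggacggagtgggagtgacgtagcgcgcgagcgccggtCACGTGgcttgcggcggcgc
Polr1b (chr2:129100746-129100995, plus strand): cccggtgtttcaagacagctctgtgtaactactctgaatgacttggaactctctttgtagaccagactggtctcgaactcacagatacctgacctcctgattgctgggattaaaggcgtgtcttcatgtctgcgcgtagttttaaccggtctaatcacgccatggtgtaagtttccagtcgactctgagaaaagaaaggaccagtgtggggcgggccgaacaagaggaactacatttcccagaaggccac
Rrp9 (chr9:106477059-106477308, plus strand): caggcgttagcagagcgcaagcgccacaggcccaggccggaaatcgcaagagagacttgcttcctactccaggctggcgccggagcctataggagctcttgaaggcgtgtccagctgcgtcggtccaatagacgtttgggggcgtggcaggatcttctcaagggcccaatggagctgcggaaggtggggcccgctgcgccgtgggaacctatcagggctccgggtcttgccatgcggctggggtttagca
In Nop2 the CACGTG begins 60 bases before the start and the CCGGAAG 38 bases before it. In Utp18 the CACGTG begins 20 bases before the start. Nop2 and Utp18 differed by 0.41 and 0.38 and Polr1b and Rrp9 by 0.49 and 0.59. These 4 were picked with their values known, and nothing is drawn from their comparison.

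Myc itself did not pass. It had log2 intensities of 12.40, 11.95 and 12.18 in GFP-positive arrays, against 12.40, 12.17 and 12.43 in GFP-negative arrays, ranges that overlap (difference -0.16 ± 0.15, SE; limma adjusted p = 0.495). Among 13 genes of the Myc network and its known growth targets, 1 rose and 2 fell, with a median difference of 0.05. Mycn, a relative of Myc, had 9.96, 9.30 and 9.30 in GFP-positive arrays, against 10.41, 10.31 and 10.76 in GFP-negative arrays, 1.96-fold lower in GFP-positive cells (limma adjusted p = 0.0344). Its other 2 probe sets, both dimmer, had differences of 0.07 and 0.32 and were not called, and its call held in only 1 of the 6 fits with 1 array left out, that without GFP-positive array 1.

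Mxd4, a repressor that competes with Myc for its partner Max, fell more. It had 9.29, 9.39 and 9.12 in GFP-positive arrays, against 10.67, 10.28 and 10.30 in GFP-negative arrays, a 2.22-fold fall with no overlap (limma adjusted p = 0.00452), and 2 of its 4 probe sets were called lower. Its call was kept without any 1 array but had an adjusted p of 0.0505 without the lymphocyte-high pair. Odc1, the first enzyme of polyamine synthesis and a classic Myc target, had 12.49, 12.55 and 12.59 in GFP-positive arrays, against 12.06, 12.09 and 12.04 in GFP-negative arrays. It rose 1.40-fold (limma adjusted p = 0.0142), and all GFP-positive arrays lay above all GFP-negative arrays. The call was lost without array 2 or array 3 of either group.

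Other genes of ribosome production, listed by function outside the symbol rule, were read from the same fit. They form 4 related lists, and the Myc network above is the fifth. Across the 5 related lists, 11 of 114 genes rose and 3 fell, or 12.3%, against 18.1% of all genes. Those that rose were 9.65%, against 8.15% of all genes, and those that fell 2.63%, against 9.92%, so only the share that fell was smaller. The 13 genes of the Myc list, which do not themselves build ribosomes, supplied 1 of the rises and 2 of the 3 falls. With the replicate number as a block 7 rose and 2 fell: Taf1c, Noc4l, Wdr75, Znhit3, Ftsj3 and Mycn were no longer called, and Polr2f, a shared polymerase subunit, was called in addition. Of 32 other small subunit assembly factors 5 rose (15.6%) and 1 fell, with 31 differences above 0 and a median of 0.26. Bysl, which matures the small subunit, had 11.38, 11.12 and 11.09 in GFP-positive arrays, against 10.42, 10.37 and 10.26 in GFP-negative arrays. Bysl rose 1.80-fold (difference 0.85 ± 0.11, SE; limma adjusted p = 0.00576), with both of its probe sets called, and kept the call under all 16 alternatives. Dimt1, a dimethylase of the small subunit RNA, had 10.71, 10.55 and 10.53 in GFP-positive arrays, against 10.13, 10.01 and 9.81 in GFP-negative arrays. It rose 1.53-fold (limma adjusted p = 0.0203), with 1 of its 2 probe sets called. Its call was lost without any 1 array other than GFP-negative array 1.

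Krr1, a processome protein, was the gene that fell. It had 11.45, 11.40 and 11.48 in GFP-positive arrays, against 12.19, 12.32 and 12.24 in GFP-negative arrays, 1.74-fold lower in GFP-positive cells (difference -0.80 ± 0.09, SE; limma adjusted p = 0.00298), and kept the call under all 16 alternatives. Its other 3 probe sets had differences of -0.06, 0.10 and 0.20 and were not called, so the fall rests on 1 of 4 probe sets. The remaining genes called higher were Noc4l at 0.37, Wdr75 at 0.46 and Pno1 at 0.47, and each of these calls was lost in at least 5 of the 6 fits with 1 array left out. With each gene's probe set of highest variance, Wdr75 had the opposite sign (difference -0.40; limma adjusted p = 0.453) and Noc4l differed by 0.53 without passing (limma adjusted p = 0.0725).

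Of 43 genes listed as other large subunit assembly factors 2 rose and 0 fell, with 39 differences above 0 and a median of 0.25. Znhit3 was placed in this list but is an assembly cofactor of box C/D particles. It had 11.23, 11.06 and 10.92 in GFP-positive arrays, against 10.63, 10.53 and 10.55 in GFP-negative arrays, a 1.41-fold rise (limma adjusted p = 0.0313). Ftsj3, a methyltransferase-like factor, had 9.82, 9.94 and 9.93 in GFP-positive arrays, against 9.60, 9.28 and 9.31 in GFP-negative arrays, also a 1.41-fold rise (limma adjusted p = 0.0390). In neither gene did the groups overlap, and each call was lost without any of 5 single arrays.

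Of 15 further genes of polymerase I initiation, termination and shared subunits 1 rose and 0 fell, with a median of 0.06. Taf1c, a subunit of the promoter selectivity factor of the polymerase, had 8.99, 9.24 and 8.93 in GFP-positive arrays, against 8.52, 8.07 and 8.39 in GFP-negative arrays. It rose 1.66-fold (limma adjusted p = 0.0264) but lost the call without any 1 array other than GFP-negative array 1.

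Among 11 genes listed as exosome cofactors and catalytic subunits 2 rose (18.2%, against 8.15% of all genes) and 0 fell, with a median of 0.14. The list includes Mpp6, a symbol that in mouse names a membrane scaffold gene, so it does not belong there. Mpp6 was not called, but it enters this median and the counts of the related lists together. Dis3, the main catalytic nuclease of the exosome, had 10.74, 10.74 and 10.78 in GFP-positive arrays, against 10.20, 9.88 and 10.09 in GFP-negative arrays. It rose 1.62-fold (limma adjusted p = 0.00985), with groups that lay apart. Mphosph6, which ties a helicase to the exosome, had 9.84, 9.89 and 9.73 in GFP-positive arrays, against 9.24, 9.05 and 9.03 in GFP-negative arrays, a 1.64-fold rise (limma adjusted p = 0.00779). Both calls were kept without any 1 array, but without the lymphocyte-high pair limma gave an adjusted p of 0.0861 for Dis3 and 0.0843 for Mphosph6.

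Genes represented by several probe sets allow a check of the small differences. Of the 58 genes 38 had more than 1 probe set, and 34 had more than 1 brighter than the median over all probe sets. In 21 of these 34 all such probe sets had differences above 0, in 13 the signs were mixed, and in 0 were all below 0. The 61 probe sets not used as representatives had a median difference of 0.20, with 50 of them above 0, and 1 was called, that of Rrp1b. Only 1.64% of these 61 were therefore called, against 14.0% of all probe sets (6.35% higher and 7.66% lower).

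Size of the difference varied with the signal of the probe set, which is not a transcript level and does not rank genes by abundance. The 20 genes with the brightest probe sets had a median difference of 0.08, a range of -0.08 to 0.35, and 0 calls by limma. The 20 with the dimmest had a median of 0.29 and held 4 of the 5 higher calls and the 1 lower call. These calls are 25% of the 20, against 18.1% of all genes and 26.6% of the genes brighter than the median probe set. This is a description of these arrays, with no test.

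**Figure D4:**
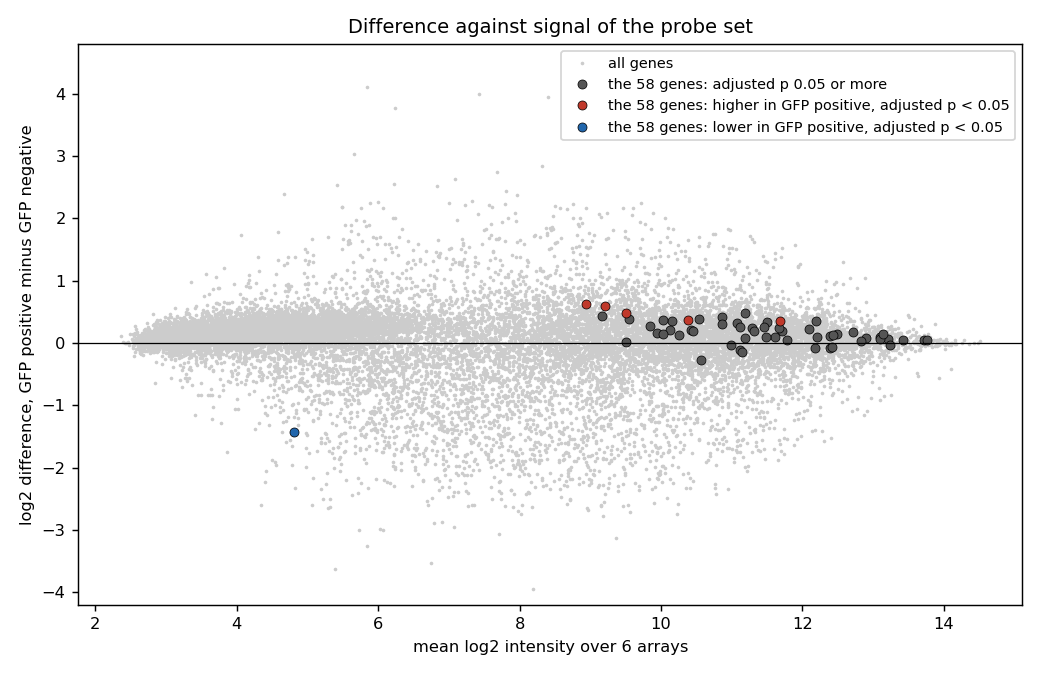
Log2 difference, GFP positive minus GFP negative (vertical axis), against mean log2 intensity over the 6 arrays (horizontal axis) for all 18193 genes (grey) and the 58 genes (large points, coloured by call). Of the 58 genes 57 have a mean of 8.93 or more and lie in a narrow band, while Utp14b lies alone at a mean of 4.81.

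Between the groups, arrays with the same replicate number moved together over this set. Array 1 was the highest of the GFP-positive arrays for 38 of the 58 genes and the highest of the GFP-negative arrays for 39. For 31 genes (53.4%) it was the highest of both, as against 22.9% of all genes and 26.4% of the 10723 brighter genes. A high share for both follows in part from the high count in each group. Deviations from the group mean correlated across the 58 genes at r = 0.60 between the arrays numbered 1, 0.57 between those numbered 2 and 0.26 between those numbered 3. Without Utp14b these were 0.56, 0.31 and 0.27, so the value for the arrays numbered 2 rests largely on that gene. Over all 18193 genes the same correlations were 0.12, 0.08 and 0.07, and over the 10723 brighter genes they were 0.19, 0.11 and 0.12. Genes are not independent replicates, and these are values with no test. Among the exceptions were Rrs1, Npm1, Ddx21, Wdr43 and Utp18, for which array 1 was the lowest of both groups. RNA quality, as the log2 difference between 3' and 5' probe sets of Actb, was 0.57, 0.69 and 0.63 in GFP-positive arrays and 0.54, 0.63 and 0.57 in GFP-negative arrays, with array 1 the lowest of each group. For Gapdh it was 0.62, 0.63 and 0.61 in GFP-positive arrays and 0.61, 0.59 and 0.62 in GFP-negative arrays, with array 1 the lowest of neither group. The part of RNA quality in the pattern was not tested.

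**Figure D5:**
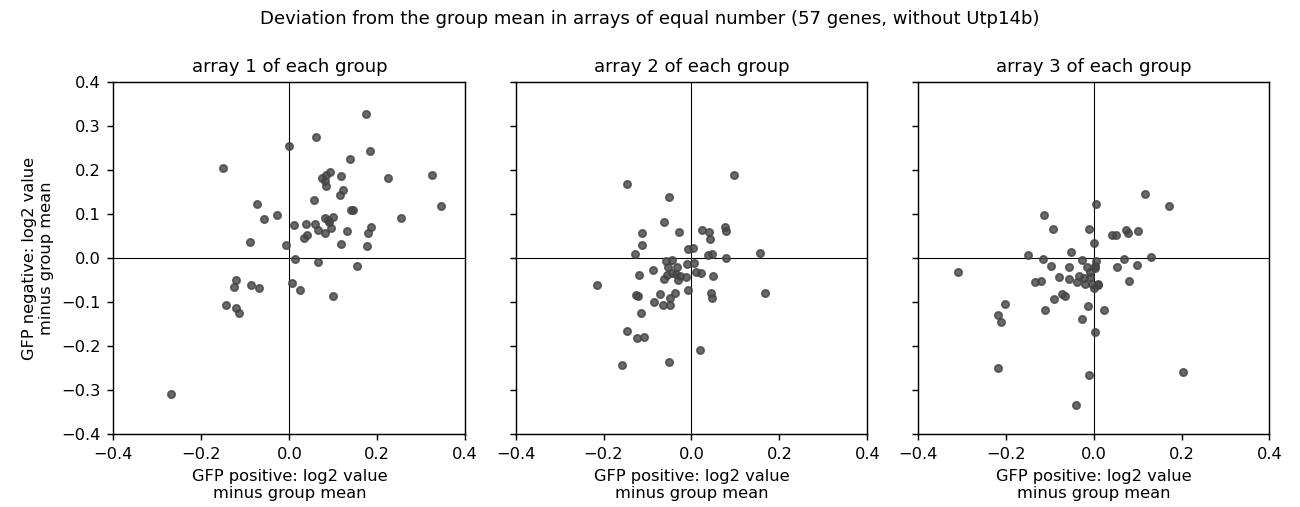
Deviation of the log2 value from the group mean in the GFP-positive array (horizontal axis) and in the GFP-negative array of the same number (vertical axis), 1 point per gene for 57 genes, without Utp14b. In the panel of the arrays numbered 1 most points lie at the upper right, with r = 0.56.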

How the data were processed

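RNA of GFP-positive and GFP-negative cells (3 arrays each) was profiled on Affymetrix arrays. Per the labels, the input was 5 ng of total RNA, amplified (NuGEN Ovation) and biotinylated. The authors deposited 1 linear intensity per probe set and array, which the submitters' processing notes credit to RMA. Its version and settings, and any detection calls, are not given in the sources used. Log2 was taken with no other normalization. The 64 control probe sets among 45101 were dropped. GEO's platform annotation names 1 gene for 34945 of the rest, several for 932 and none for 9160, and all 58 genes matched RefSeq (GRCm38.p6) by gene ID.

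The test was a two-sided limma fit without covariates (version 3.58.1, R 4.3.3, lmFit and eBayes), with Benjamini-Hochberg adjustment over 45037 probe sets and a threshold of 0.05. Intervals (95%) and SE come from the moderated fit with 6.38 degrees of freedom. Tables and figures were made in Python 3.11.15 with pandas 2.3.3 and matplotlib 3.10.9.

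The members and the lists were chosen with earlier results of these data known. Values in every array are given, per role, for up to 3 members of largest change past the threshold, or the 2 of highest mean where fewer than 2 passed, for Ncl, Npm1, Fbl, Polr1a and Ubtf, for a member called against the direction of its role, for Hes1 and Myc, and for up to 3 called genes of each of 5 related lists; others were named after their values were seen. Lists of markers covered erythroid, granulocyte and monocyte, stem and multipotent, megakaryocyte, mature lymphocyte, and stroma and endothelium genes. The main fit has no block, since the labels do not say that equal numbers mark pairs. Deviations from the group means correlated between equally numbered arrays at 0.02, 0.05 and 0.02 over all probe sets, but at 0.19, 0.11 and 0.12 over the 10723 brighter genes. Pairing is therefore not settled, and the blocked values are given beside the counts. There were 16 alternatives, including the replicate number as a block and each array left out.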

Additional observations from a re-analysis of the deposited data

How the results depend on the processing

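The count of genes called higher, 5, was 11 with array medians subtracted or with a trend and robust prior, 9 with array weights, with the brighter 22518 probe sets only or with 16 added before the log, 2 with the replicate number as a block, and 0 with a fold floor of 1.2 (limma treat) or without the lymphocyte-high pair of arrays. It ran from 0 to 3 with 1 array left out. The count called lower, 1, was 0 with the brighter probe sets, which leave Utp14b out, with the fold floor and without the lymphocyte-high pair of arrays, and ran from 0 to 1 with 1 array left out. The median difference, 0.16, was 0.24 with array medians subtracted, which moves all differences alike, and 0.26 with each gene's probe set of highest variance, and ran from 0.12 to 0.22 with 1 array left out. In the 5 related lists together, 11 genes were called higher, against 27 with array medians subtracted, 23 with the trend, 17 with 16 added, 7 with the block, 3 with the fold floor, 1 without the lymphocyte-high pair of arrays, and 3 to 14 with 1 array left out; 3 were called lower, and 2 to 4 in every alternative. The share of all genes called also moved, to 24.0% with array medians subtracted, where 20.7% of the 58 were called, and to 32.8% among brighter probe sets, where 15.8% were. With the block it fell to 14.0%, where 5.17% of the 58 were called. It was 9.25% with the fold floor and 7.19% without the lymphocyte-high pair, where 0 of the 58 were called. For Nop53 the sign turned with array medians subtracted (0.053) and the probe set of highest variance (0.56), and with 1 array left out it ran from -0.057 to 0.0078, positive without array 1 of the GFP-negative (0.0078) or array 3 of the GFP-positive group (0.0033), and for Rrp1b with the probe set of highest variance (0.44). Among 28 named genes, 348 of 447 values kept direction and side of the threshold, 93 lost the call, 1 gained it and 5 changed sign. The causes were not tested. Over all probe sets, deviations from the group mean correlated best between arrays of equal number, but only at 0.02, 0.05 and 0.02. For GFP-negative array 3 that value, 0.019, was close to its 0.016 with GFP-positive array 1. This is a weak hint from the data and not from the design. Signal over background is unknown without detection calls, which limits Utp14b most.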

Other observations

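Of the marker lists not described above, 8 megakaryocyte genes held 1 that rose and 1 that fell, with summed intensities of 5987 to 7079 in GFP-positive and 4588 to 5657 in GFP-negative arrays. Of 11 mature lymphocyte genes 0 rose and 2 fell, with sums of 1179 to 3482 in GFP-positive and 2719 to 4098 in GFP-negative arrays. Of 9 stroma and endothelium genes 0 rose and 2 fell, with sums of 412 to 583 in GFP-positive and 589 to 679 in GFP-negative arrays. How these lists bear on the 58 genes was not tested.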
